A study of Arabidopsis thaliana with 31 samples.

Results

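The genes of brassinosteroid perception, signaling and synthesis were followed through 31 RNA-seq libraries from *Arabidopsis* root cells. The members were chosen by name, as 10 loci out of 32678 in the deposited table. They were the receptors *BRI1* (AT4G39400), *BRL1* (AT1G55610) and *BRL3* (AT3G13380), the co-receptor *BAK1* (AT4G33430), the kinase *BIN2* (AT4G18710), the transcription factors *BZR1* (AT1G75080), *BES1* (AT1G19350) and *BRAVO* (AT5G17800, also *MYB56*), and the synthesis genes *DWF4* (AT3G50660) and *CPD* (AT5G05690). All 10 were found. A further list of 54 genes of the same pathway was read beside them.

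The libraries came from 20 single quiescent center (QC) cells, 4 aliquots that are parts of a single lysate of several QC cells, 4 stele cells taken 16 h after the root tip was removed, and 3 stele cells taken at 0 h. All plants were in the Col-0 background. QC cells and aliquots came from *WOX5:GFP* roots labelled 6 DAS, in which a *WOX5* promoter drives GFP in the QC. Stele cells came from *WOL:CRE-GR 35S:lox-CFP* roots labelled 7 DAS. In that line a *WOL* promoter drives a Cre made active by dexamethasone, and the CFP mark is then inherited, so that it shows descent from a *WOL* cell and not *WOL* expression at harvest. The cut that was made in all stele roots took away the QC and its surrounding stem cells, immediately before harvest at 0 h. QC and stele cells differ in line, age, cell type and treatment, since only the stele roots had dexamethasone and the cut, and these cannot be told apart here. No plant is named for any cell, so each group counts as 1 sample. No test was made across cells, and groups are described by values per cell, medians, ranges and whether every cell of one group lay above every cell of the other.

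Brassinosteroids are plant steroid hormones. The hormone binds BRI1 or its homologs at the cell surface, BAK1 joins the receptor, and the relay that follows switches off BIN2, a GSK3-type kinase that otherwise phosphorylates BZR1 and BES1 and keeps them inactive. Active BZR1 and BES1 repress the synthesis genes *CPD* and *DWF4*, which closes a feedback loop, and turn many other genes up or down. In the root, BRL1 and BRL3 are best known from vascular cells and the stem cell niche, and BRAVO is a MYB factor of vascular initials and the QC that holds back QC division.

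The level used here is FPM, the reads of a gene per 1000000 reads of its library. The libraries held 11637897 to 127775758 reads, and 1 read was worth under 0.1 FPM in each. The median share of loci above 0 was 17.9% in QC cells, 30.3% in aliquots, 38.8% in stele cells at 16 h and 36.6% at 0 h. Many libraries were nested. QC cell 1 led a set with QC cells 8 to 13, QC cell 2 a set with QC cells 3 to 7, and QC cell 14 a set with QC cells 19 and 20, and in each of the other groups (aliquots, 16 h and 0 h) library 1 led the rest. A gene listed at 0 in the leading library was listed at 0 in its whole set, so such a set gives 1 observation of absence and not several. QC cells 15 to 18 belonged to no set, and QC cells 15 and 16, and likewise 17 and 18, had nearly alike profiles. QC cells 9 and 11 had a Pearson r of 0.94 over all loci, beside 0.96 for each of these pairs. They were still counted as separate cells. The cell type labels were checked against marker genes. Of the 5 QC markers, *WOX5* was at 124 to 3193 FPM in all 20 QC cells and *PLT1*, *PLT2* and *BBM* were above 0 in each, while *AGL42* was above 0 only in QC cell 14, at 0.374 FPM. Of the 6 stele markers, *WOL* was above 0 in all 7 stele cells and in no QC library and *AHP6* was at 0 in every library, but *PHB* was above 0 in 6 of 20 QC cells, at up to 22.5 FPM, and *SHR* in QC cell 18 and 3 aliquots, at under 0.1 FPM. The epidermal marker *GL2* was above 0 in all 4 stele cells at 16 h, at up to 4.65 FPM, and in QC cell 14 at 1.40 FPM. The other epidermal, root cap, endodermal and cortical markers (*WER*, *SMB*, *BRN1*, *CASP1* and *CO2*) were at 0 throughout.

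The upstream sequences of *CPD*, *DWF4* and *BRAVO* are shown because *CPD* and *BRAVO* had the largest differences of medians of the members when QC cells were set against 0 h stele cells, *DWF4* is the other synthesis gene, and BZR1 and BES1 are known to act on their promoters. Each is the 250 bases before the annotated start of the gene in TAIR10.1 (RefSeq), 5′ to 3′ on the strand of the gene. Capitals mark matches on either strand to CGTGTG or CGTGCG, the letters BZR1 is known to bind, and to CANNTG, the E-box that BES1 is known to bind.
*CPD* (chr5:1706949-1707198, minus strand): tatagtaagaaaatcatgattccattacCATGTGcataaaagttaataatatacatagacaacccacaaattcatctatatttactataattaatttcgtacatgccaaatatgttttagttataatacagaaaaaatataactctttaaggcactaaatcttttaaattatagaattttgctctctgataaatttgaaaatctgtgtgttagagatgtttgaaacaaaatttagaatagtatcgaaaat
*DWF4* (chr3:18817406-18817655, minus strand): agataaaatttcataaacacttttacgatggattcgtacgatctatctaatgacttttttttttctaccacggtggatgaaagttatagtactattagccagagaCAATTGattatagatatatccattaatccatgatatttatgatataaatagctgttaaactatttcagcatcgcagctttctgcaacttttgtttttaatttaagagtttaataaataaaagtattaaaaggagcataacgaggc
*BRAVO* (chr5:5876863-5877112, plus strand): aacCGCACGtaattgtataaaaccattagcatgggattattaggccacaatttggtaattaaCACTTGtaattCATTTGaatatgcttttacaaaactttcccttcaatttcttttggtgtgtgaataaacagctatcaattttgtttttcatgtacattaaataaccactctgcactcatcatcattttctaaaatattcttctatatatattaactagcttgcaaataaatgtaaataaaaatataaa

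The *CPD* window held 1 E-box (CATGTG, 222 bases before the start), the *DWF4* window 1 (CAATTG, 145 bases before it) and the *BRAVO* window 2 E-boxes and, 247 bases before the start, a CGTGCG read on the other strand. Neither synthesis gene had CGTGTG or CGTGCG within these letters. Among the 10 members, 8 windows held CANNTG, 2 held CGTGCG (*BAK1* and *BRAVO*) and 1 held CGTGTG (*BZR1*, at 2 places). Over 27443 windows of the same length before protein-coding genes, 55.3% held CANNTG, 1.57% CGTGCG and 5.37% CGTGTG. A match here is a run of letters and not a binding site, and none of the data measure binding.

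The gene models place *BRI1* at chr4:18324457-18328831, *BRL1* at chr1:20779493-20784017, *BRL3* at chr3:4346330-4350939, *BAK1* at chr4:16086311-16090832, *BIN2* at chr4:10296138-10301228, *BZR1* at chr1:28185504-28188075, *BES1* at chr1:6688463-6691216, *BRAVO* at chr5:5877113-5879331, *DWF4* at chr3:18813949-18817405 and *CPD* at chr5:1702640-1706948 in TAIR10.1. The relatives among them differ in nearly all exact 50-base stretches of their exons. BRL1 and BRL3 were identical at 82.3% of their aligned residues, BRI1 was identical to BRL1 at 52.0% and to BRL3 at 52.4%, and BZR1 to BES1 at 89.5%. Even so, at least 98.76% of the 50-base windows of the exons of each member occurred only 1 time in the genome. These are exact matches, and how the authors' alignment placed reads that match less exactly was not checked. The library kit does not mark strand, and this touches *BES1* and *BZR1*. Another gene on the opposite strand covers 33.6% of the exon bases of *BES1*, and 26.1% of those of *BZR1* are shared in the same way, so reads of these genes and their neighbours cannot be told apart there. In the other members the shared part was at most 5.93%.

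Per kilobase of exon, the order of the members differed between the cell types. This scale takes reads as spread evenly over the exons, which was not checked. In QC cells the highest median was that of *BRAVO* (229.5 FPM per kb), followed by *BAK1* (100.5), *BRI1* (52.5), *BIN2* (42.7) and *BZR1* (27.2). Without division by exon length, the medians of *BRAVO*, *BAK1* and *BRI1* lay closer together, at 314, 289 and 230 FPM. Neighbours in the order per kilobase were not apart, since *BRAVO* was above *BAK1* in 12 of 20 cells, *BAK1* above *BRI1* in 13 and *BRI1* above *BIN2* in 11. In stele cells at 16 h the order began with *BIN2* (125 FPM per kb), *BAK1* (38.4), *BES1* (30.01) and *CPD* (23.99). There *BIN2* was above *BAK1* in 4 of 4 cells, but *BAK1* was above *BES1*, and *BES1* above *CPD*, in only 2 of 4. *BES1* ran from 1.25 to 73.2 FPM per kb in these cells. In stele cells at 0 h it began with *CPD* (280.3 FPM per kb), *BIN2* (110.4) and *BAK1* (33.6), each above the next in 3 of 3 cells, although the ranges of *CPD* (126 to 315) and *BIN2* (60.5 to 151) overlapped. *BRAVO* was last at 0 h with a median of 0.

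**Figure D1:**
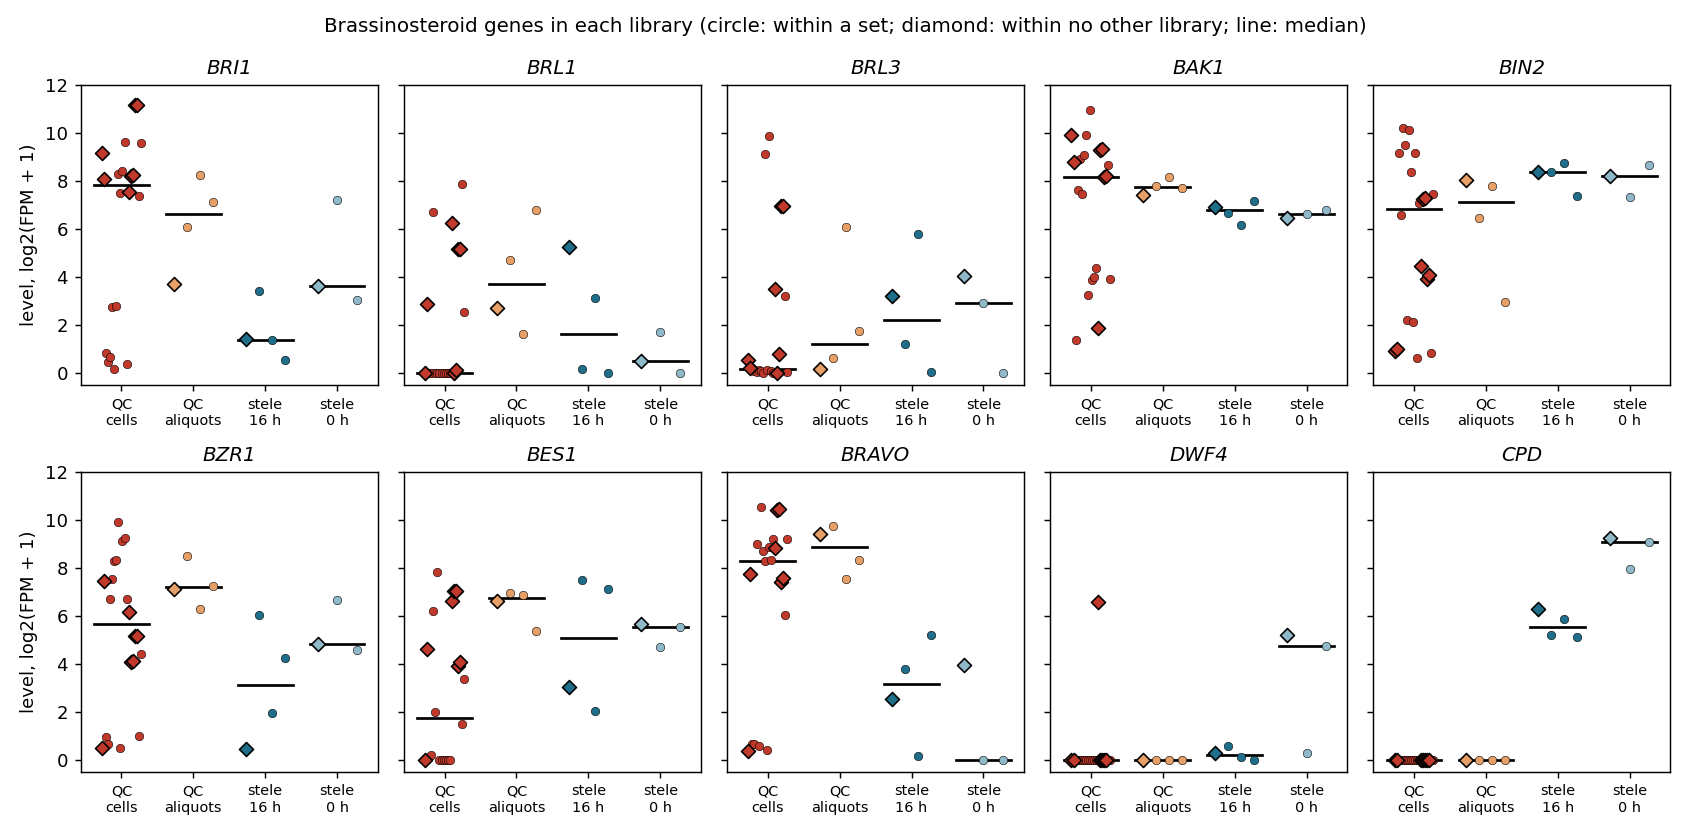
Level of each of the 10 genes as log2(FPM + 1) on the vertical axis, with each point 1 library and the groups QC cells, QC aliquots and stele cells, at 16 h and then 0 h, on the horizontal axis. Diamonds are libraries whose detected genes lie within no other library and lines are group medians; *CPD* is at 0 in all 24 QC libraries and above 0 in all 7 stele cells.

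The synthesis gene *CPD* gave the clearest division of the members. *CPD* encodes a cytochrome P450 of brassinosteroid synthesis and is often used to read the feedback of the pathway. It was listed at 0 in all 20 QC cells (0%, with an exact Clopper-Pearson interval of 0% to 16.8%) and in all 4 aliquots. The interval covers counting error only and takes cells as independent, which cells of 1 set are not. *CPD* stood at 75.9, 35.3, 57.3 and 33.9 FPM in stele cells 1 to 4 at 16 h, and at 607, 242 and 541 FPM in stele cells 1 to 3 at 0 h. Every cell at 16 h was thus below every cell at 0 h. The medians were 46.3 FPM at 16 h and 541 FPM at 0 h, a difference of -3.56 on the log2(FPM + 1) scale, and the SD was 0.55 over the 4 cells at 16 h and 0.72 over the 3 cells at 0 h.

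*CPD* was the only member whose groups did not overlap, for QC cells against stele cells at 0 h, for QC cells against stele cells at 16 h and for 16 h against 0 h. It was lower in every QC cell than in every stele cell at 0 h, as were 14.5% of the 16270 loci above 0 in either group, while 0.166% of loci were higher in every QC cell, with none of the members among them. Against stele cells at 16 h it was also lower in every QC cell, where 10.5% of loci were lower and 0.0614% higher. Between the stele times, 12.6% of 15156 loci were lower and 10.6% higher in every cell at 16 h. A count of 1 in 10 members is near these shares, so it is not a result about the members as a group. The median difference over the members was -0.95 for QC cells against stele cells at 0 h, beside -1.90 over all loci, and -0.57 for 16 h against 0 h, beside 0 over all loci.

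*DWF4* encodes the P450 of an early step that is thought to limit the rate of synthesis. It was at 94.5 FPM (10874 reads) in QC cell 14 and listed at 0 in the other 19 QC cells, a share of 5% with an exact interval of 0.127% to 24.9%, and it was at 0 in the 4 aliquots. QC cells 19 and 20, of the same set and with 100463749 and 93606126 reads beside the 115114702 of QC cell 14, listed it at 0. In stele cells 1 to 4 at 16 h it had 0.209, 0.483, 0.073 and 0 FPM, which are at most 17 reads, and in stele cells 1 to 3 at 0 h it had 35.7, 0.213 and 25.6 FPM. The stele groups overlapped in cell 2 at 16 h, with 17 reads, and cell 2 at 0 h, with 6 reads, and without either of these cells *DWF4* was lower in every cell at 16 h. Without cell 2 at 16 h, this rested on 5 reads (0.209 FPM, cell 1 at 16 h) against 6 reads (0.213 FPM, cell 2 at 0 h), which is nearly a tie. The cell with the least *DWF4* at 0 h also had the least *CPD* at that time.

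The pathway list held 13 other synthesis genes, which run from sterols to the last oxidations. Of the 12 above 0 in QC cells or stele cells at 0 h, 5 were lower in every QC cell and none was higher, beside 14.5% and 0.166% of all loci, with a median difference of -5.37 beside -1.90. *DWF1*, a reductase of sterol synthesis, had the highest median of the list in stele cells. It was at 0 to 589 FPM with a median of 0.120 in QC cells, against 1460.1, 1269.7 and 1173 FPM in stele cells at 0 h, and at 16 h it was at 242, 566, 65.3 and 989 FPM, below every cell at 0 h. *CYP51G1*, a sterol demethylase, had a median of 0 in QC cells and medians of 71.1 FPM at 16 h and 188 FPM at 0 h, and every cell at 0 h was above every QC cell and every cell at 16 h. *FK*, a sterol reductase, and *ROT3*, a P450 of the later steps, were listed at 0 in all QC libraries and were above 0 in all 7 stele cells, with medians of 8.02 and 26.9 FPM at 16 h and 53.6 and 34.0 FPM at 0 h.

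Some synthesis genes stood apart at 1 of the stele times. *CYP85A1*, an oxidase of the last steps, was listed at 0 in all 4 cells at 16 h and was at 17.7, 0.284 and 76.0 FPM in the 3 cells at 0 h. *DET2*, a steroid reductase, was the only gene of the list that was higher in every cell at 16 h, at 14.5, 4.77, 4.21 and 3.46 FPM, against 0 in all 3 cells at 0 h. For both genes the zeros follow from the leading library of their set. Over the 13 synthesis genes, 1 was higher and 3 were lower in every cell at 16 h, beside 10.6% and 12.6% of all loci, so these counts are not a result about synthesis genes. The median difference was -1.53, beside 0 over all loci. The summed level of the 6 stele markers was 2.42 to 204 FPM at 16 h, against 398 to 1126 FPM at 0 h, and of these markers *SHR*, *PHB* and *ATHB8* were lower in every cell at 16 h, *WOL* and *TMO5* overlapped and *AHP6* was listed at 0. *ATHB8* was at 7.16, 0, 0.147 and 1.15 FPM at 16 h, against 325, 515 and 204 FPM at 0 h, and *SHR* was listed at 0 in all cells at 16 h and was at 49.7, 149 and 25.6 FPM at 0 h. Their part in the difference of the synthesis genes was not tested.

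QC cell 14 stood apart from the other QC cells in *DWF4*, *DET2* and *DWF7*, but not in all synthesis genes. Beside its *DWF4* it had 482 FPM of *DWF1*, 419.9 FPM of *SMT1*, an early sterol methyltransferase, 246 FPM of *DET2* and 145 FPM of *CYP51G1*, and still no *CPD*. QC cell 20, of the same set, had 589, 80.7, 1.20 and 144 FPM of these 4 genes. *SMT1* was also at 180 FPM in QC cell 12 and *DWF1* at 146 FPM in QC cell 9. *DWF4*, *DET2* and *DWF7* were at 0 in the leading QC cells 1 and 2, so their zeros give 1 observation for each set. In the QC cells other than 14, *DET2* was at most at 1.20 FPM. *DWF7* was at 310 FPM in QC cell 14 and at most at 0.239 FPM in the other QC cells. *HYD1* was at 519 FPM in QC cell 14, at 234 FPM in QC cell 20 and at most at 0.911 FPM elsewhere in the QC cells.

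**Figure D2:**
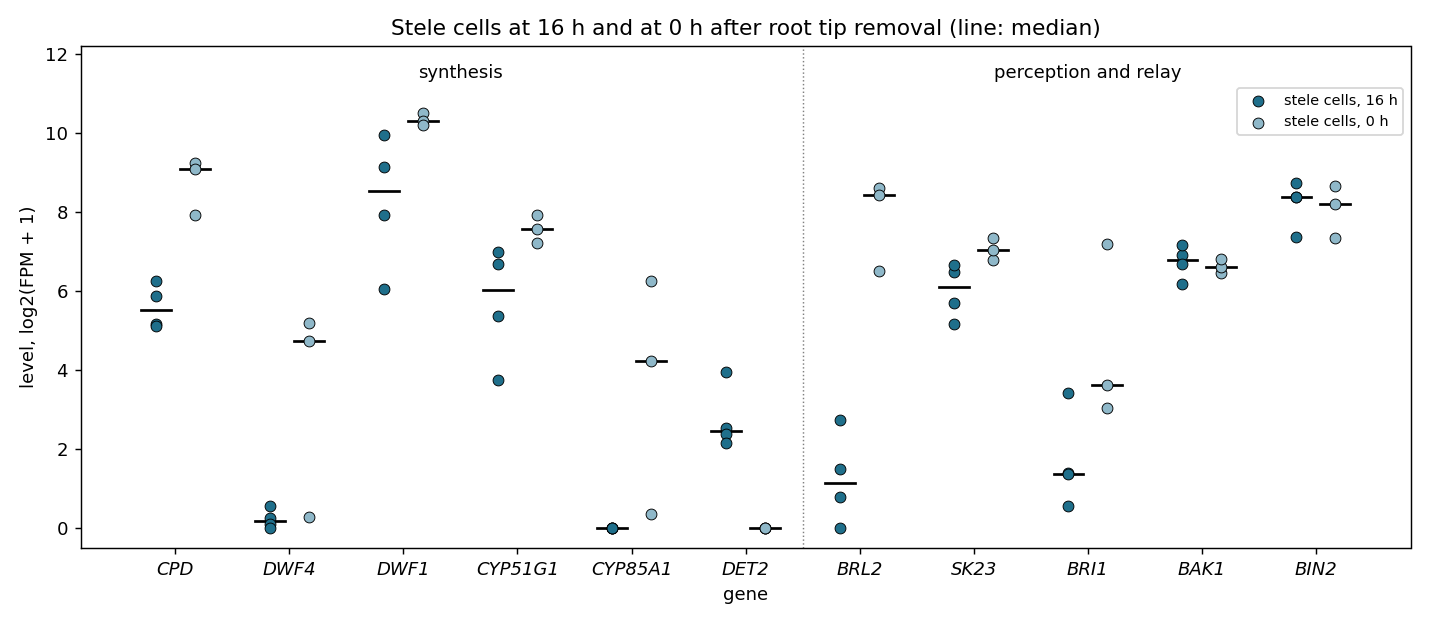
Level of 11 pathway genes as log2(FPM + 1) on the vertical axis in single stele cells, with the 4 cells at 16 h left of the 3 cells at 0 h for each gene on the horizontal axis and lines at the medians. *CPD*, *DWF1*, *CYP51G1*, *CYP85A1*, *BRL2* and *SK23* are lower in every cell at 16 h and *DET2* is higher, while *BAK1* and *BIN2* lie at like levels at both times.

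Of the receptors, *BRI1* was the most widely detected. It was above 0 in all 31 libraries. In QC cells it ran from 0.139 FPM, which is 2 reads, to 2324 FPM, with a median of 229.7 FPM. The widest gap between neighbouring QC cells split 13 cells, from 164 to 2324 FPM, from 7 cells, from 0.139 to 5.92 FPM. That cut was chosen from these same values, and 12.1, 66.7 and 140.5 FPM in aliquots lie within the gap. The 7 low cells were QC cells 3 to 8 and 13, and in the set of QC cell 2 only the leading cell was high. The aliquots had 12.1, 66.7, 301 and 140.5 FPM, and the SD on log2 was 1.93 over these 4 parts of 1 lysate, beside 3.93 over the 20 cells. Stele cells had 1.63, 9.75, 1.58 and 0.470 FPM at 16 h and 11.3, 146 and 7.28 FPM at 0 h. The medians of 1.60 and 11.3 FPM differed by -2.24 on the log2 scale, or by -3.75 without cell 1 at 0 h and -4.03 without cell 3 at 0 h. Without cell 2 at 0 h, which held 146 FPM, the difference was nearer 0 than -2.24. The groups overlapped only in cell 2 at 16 h and cell 3 at 0 h. Without either of these cells *BRI1* was lower in every cell at 16 h. The 13 high QC cells were above all 7 stele cells, and none of the 7 low ones was.

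*BRL1* and *BRL3*, the homologs that also bind brassinosteroid, were found in fewer cells and at times at high levels. *BRL1* was above 0 in 8 of 20 QC cells, and at 10 FPM or more in 5: QC cell 19 (234 FPM), 5 (103), 14 (75.5) and the nearly alike 17 and 18 (34.6 and 35.0). It was at 0 in the whole set of QC cell 1. It was at 5.52, 25.0, 2.08 and 109.7 FPM in the aliquots. In stele cells it had 37.2, 0.114, 7.69 and 0 FPM at 16 h and 0.430, 2.28 and 0 FPM at 0 h, with overlap.

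*BRL3* was above 0 in 17 of 20 QC cells, with a median of 0.112 FPM, and 8 of these 17 values are 1 or 2 reads. Against that, QC cells 9 and 11 held 549 and 944 FPM and QC cells 17 and 18 held 124 and 123 FPM. QC cells 17 and 18 are nearly alike, and the profiles of QC cells 9 and 11 also ran alike (Pearson r 0.94). The aliquots had 0.110, 0.538, 66.7 and 2.39 FPM, an SD of 2.70 on log2 beside 3.35 over the cells, so for this gene parts of 1 lysate spread nearly as widely as cells. Stele cells had 8.29, 1.28, 53.7 and 0.043 FPM at 16 h and 15.6, 6.54 and 0 FPM at 0 h, with overlap.

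The receptors were not shared out evenly within a cell. Per kilobase of exon, *BRI1* was the highest of the 3 in 16 of 20 QC cells, *BRL1* in 2 (QC cells 5 and 19) and *BRL3* in 2 (QC cells 9 and 11). *BRI1* was the highest in all 4 aliquots, in 2 of 4 stele cells at 16 h and in 2 of 3 at 0 h. All 3 receptors were at 10 FPM or more in 3 QC cells, which were cell 14 and the nearly alike cells 17 and 18, while 6 QC cells had none at that level. Over QC cells, with nearly alike cells counted 1 time (n = 18), Pearson r was 0.45 for *BRI1* and *BRL3* (rho 0.41), 0.19 for *BRI1* and *BRL1* (rho 0.14) and 0.15 for *BRL1* and *BRL3* (rho 0.23). These are descriptions, since the cells share sets and depth and QC cells 9 and 11, whose profiles ran alike, were counted separately.

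*BAK1*, the co-receptor, which also serves other receptor kinases, had the lowest spread of the members above 1 FPM in aliquots and in stele cells at both times. In QC cells it ran from 1.63 to 1991 FPM with a median of 289 FPM. The widest gap between neighbouring cells split 7 cells (3, 9, 11 to 14 and 20) up to 19.5 FPM from 13 cells from 175 FPM up. The aliquots had 168, 223, 287 and 206 FPM, an SD of 0.32 on log2 beside 2.97 over the cells. Stele cells had 119, 101, 71.4 and 142 FPM at 16 h, against 87.0, 96.5 and 111 FPM at 0 h. The medians of 110.5 and 96.5 FPM differed by 0.19 on log2, which is less than the SD of 0.42 over the cells at 16 h, and by -0.15 when libraries were scaled by their median ratio.

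*BIN2* varied widely between QC cells and little between stele cells. It ran from 0.532 to 1183 FPM in QC cells, with a median of 114 FPM, and the widest gap between neighbouring cells split 11 cells from 93.9 FPM up from 9 cells up to 20.9 FPM. The aliquots had 263, 86.8, 222 and 6.84 FPM, so that 1 aliquot stood as low as the low cells. In stele cells *BIN2* was at 333, 333, 427 and 164 FPM at 16 h, against 294, 161 and 401 FPM at 0 h, with a difference of medians of 0.18 on log2, or -0.25 when scaled by the median ratio and -0.04 to 0.61 with 1 cell at 0 h left out. In the 4 QC cells with *BIN2* at 1 FPM or less, cells 1, 2, 12 and 19, *BRI1* was at 164 FPM or more. *BRI1* was also at that level in 13 of all 20 QC cells, so the 4 cells do not set the genes against each other. Pearson r between the 2 genes over QC cells was -0.44 (rho -0.30, n = 18), which is a description.

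**Figure D3:**
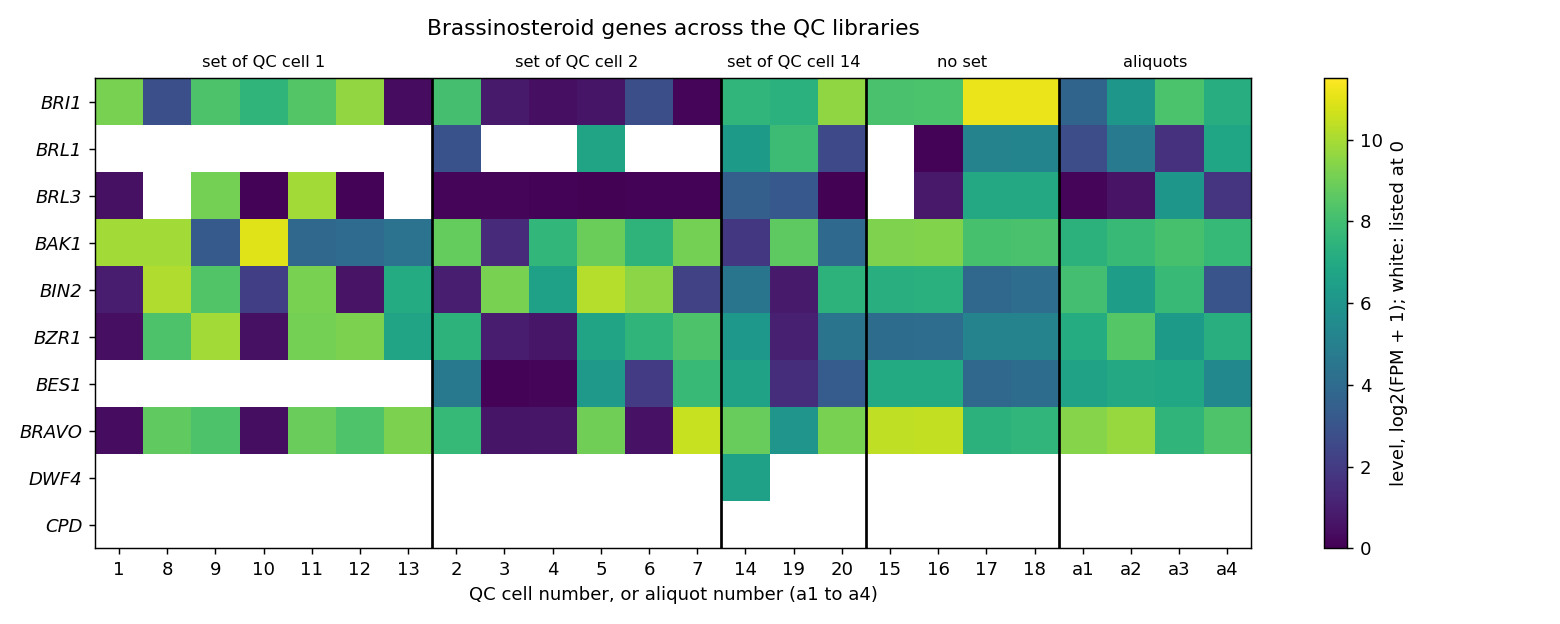
Level of the 10 genes (vertical axis) in the 20 QC cells and 4 aliquots (horizontal axis), as log2(FPM + 1) in colour, with white where a gene is listed at 0 and black lines between the sets of nested libraries. *BES1* and *BRL1* are white across the whole set of QC cell 1, and *BRI1* is dark in QC cells 3 to 7.

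*BZR1* and *BES1* encode closely related transcription factors. *BZR1* was above 0 in all 31 libraries. It ran from 0.389 to 964 FPM in QC cells, with a median of 52.3 FPM, and 5 cells (1, 3, 4, 10 and 19) had 0.389 to 1.02 FPM while the other 15 had 15.8 FPM or more. The aliquots had 139, 356, 76.7 and 151 FPM. Stele cells had 0.377, 64.5, 2.89 and 17.9 FPM at 16 h and 27.3, 99.5 and 22.7 FPM at 0 h, a difference of medians of -1.72 on log2 with overlap through cell 2 at 16 h. That difference was -0.58 without cell 1 or cell 3 at 16 h, -2.86 without cell 2 or cell 4 at 16 h and -2.64 without cell 3 at 0 h.

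*BES1* was listed at 0 in all 7 libraries of the set of QC cell 1, which is 1 observation of absence, and was above 0 in the other 13 QC cells. Its highest values were 222 FPM in QC cell 7, 130.3 and 129 FPM in the nearly alike QC cells 16 and 15, and 96.4 FPM in QC cell 14. The aliquots had 96.8, 123, 116 and 40.3 FPM, so *BES1* was at 40.3 FPM or more in each of them while 15 of 20 QC cells were below every aliquot. Stele cells had 7.24, 178, 3.04 and 139 FPM at 16 h and 50.01, 25.0 and 44.9 FPM at 0 h. The 4 cells at 16 h lay on both sides of those at 0 h, as the SD of 2.79 on log2 at 16 h and 0.52 at 0 h shows.

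*BRAVO* had the largest difference of medians in favour of QC cells, 8.30 on log2 against stele cells at 0 h, followed by *BRI1* with 4.20. The *BRAVO* difference was 3.76 with only libraries that lie within no other and 4.33 over cells above 0, and that of *BRI1* was 2.70 without cell 1 at 0 h and 2.41 without cell 3. *BRAVO* was above 0 in all 24 QC libraries. QC cells ran from 0.292 to 1480.2 FPM with a median of 314 FPM, with 5 cells (1, 3, 4, 6 and 10) from 0.292 to 0.599 FPM and the other 15 at 63.5 FPM or more. The aliquots had 677, 853, 182 and 323 FPM. Stele cells had 4.73, 12.9, 0.110 and 35.3 FPM at 16 h and 14.6, 0 and 0 FPM at 0 h. Of the 20 QC cells, 15 were thus above all 7 stele cells and 5 were not. Without stele cell 1 at 0 h, *BRAVO* was higher in every QC cell and in every cell at 16 h than in the cells left at 0 h. The cells left were listed at 0, so any read sufficed. The lowest counts were 4 reads in QC cell 10 and 3 reads in cell 3 at 16 h. Stele cell 1 at 0 h also held 5.24 FPM of *WOX5*, 0.258 of *PLT1*, 3.27 of *PLT2* and 10.9 of *BBM*, QC markers that were listed at 0 in the other cells at 0 h. The 5 QC markers summed to 0 to 19.7 FPM in cells at 0 h and 0 to 6.74 FPM at 16 h, and *AGL42*, which all but 1 QC cell and all aliquots also lacked, added nothing to these sums. Their part in the *BRAVO* value was not tested. At 16 h the cells with 12.9 and 35.3 FPM of *BRAVO* had all 5 QC markers at 0.

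*BRAVO* was set beside *BZR1* and *BES1* within the QC. Over QC cells counted without near copies (n = 18), *BZR1* and *BRAVO* had a Pearson r of 0.67 (rho 0.46) and *BES1* and *BRAVO* of 0.51 (rho 0.41). All 5 QC cells with *BRAVO* under 1 FPM had *BES1* at 3.02 FPM or less, but so did 6 other QC cells, with *BRAVO* at 63.5 to 592 FPM. In 4 of the 5 cells *BZR1* was under 1 FPM too. The exception was QC cell 6, with 184 FPM of *BZR1*. These cells share sets and depth, and the r is a description. *PSK5* and *ERF115*, a peptide hormone gene and its activator that BRAVO is known to oppose, were also read. *PSK5* was at 0 in all 20 QC cells and in all 4 aliquots. *ERF115*, named after its values were seen, was at 0 in 16 QC cells, but was at 102 FPM in QC cell 19 and at 82.5, 76.8, 9.27 and 8.01 FPM in the aliquots, where *BRAVO* was high. For both genes a set whose leading library was at 0, as those of QC cells 1 and 2 were, gives 1 observation of absence. In stele cells *PSK5* was at 108, 11.7, 76.9 and 21.04 FPM at 16 h, against 9.62, 0.249 and 59.3 FPM at 0 h, with overlap.

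The aliquots are parts of 1 lysate, so their spread holds no difference between cells. The QC cells were collected in several batches, which the labels do not name. Their spread therefore also holds any difference between batches, which cannot be told apart from that between cells. For the 9 members above 0 in QC libraries, the SD of log2(FPM + 1) was larger over the 20 cells than over the 4 aliquots in all 9, as it was for 69.2% of 15013 loci. Of the 8 members found in aliquots, *BRAVO* (3.78 in cells, 1.02 in aliquots) and *BAK1* (2.97 and 0.32) had the widest gap and *BRL1* (2.78 and 2.28) the narrowest. No member was higher or lower in every QC cell than in every aliquot, although with only libraries that lie within no other *BRI1* was higher and *BIN2* lower in every QC cell than in the 1 aliquot left. Over all libraries 0.0666% of loci were higher and 3.28% lower. Depth differed as well, with 12071810 to 115114702 reads in QC cells and 83718007 to 127775758 in aliquots. The median number of members above 0 was 7 in QC cells, 8 in aliquots, 10 in stele cells at 16 h and 9 at 0 h.

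The rest of the pathway list was read in the same way. Of the 54 genes, 10 were at 0 in all libraries, 31 were above 0 in some QC cell, 7 in every QC cell, and 30 in every stele cell at 0 h. None was higher in every QC cell than in stele cells at 0 h and 10 were lower, of 42 above 0 in either, beside 0.166% and 14.5% of all loci, with a median difference of -3.24 beside -1.90. Apart from the synthesis genes these were *BRL2*, *SERK1*, *SK22*, *IAA19* and *PSK5*. *BRL2* encodes a receptor-like kinase of the BRI1 family from vascular tissue, which does not bind the hormone. It was at 0 in all QC libraries, at 5.74, 0, 1.83 and 0.727 FPM at 16 h, and at 389, 90.0 and 346 FPM at 0 h, lower in every cell at 16 h. *SERK1*, a relative of BAK1, was at 0 in QC cells and had medians of 3.52 FPM at 16 h and 43.1 FPM at 0 h. *SK22*, a kinase of the BIN2 group, was at most at 11.2 FPM in QC cells, against 58.1 to 119.7 FPM at 0 h, and *SK23*, of the same group, was lower in every cell at 16 h (35.0 to 101 FPM) than at 0 h (109 to 160.4 FPM). *IAA19*, an auxin response gene that brassinosteroid induces, had medians of 0, 9.24 and 71.2 FPM in QC cells, at 16 h and at 0 h.

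In QC cells the highest medians of the list were those of *SMT2*, a sterol methyltransferase (128 FPM, from 0.163 to 862), and *BEH2*, a homolog of BZR1 (65.5 FPM, from 0.035 to 535). In stele cells they were those of *DWF1* (989 FPM over the 7 cells) and *TCH4*, a cell wall enzyme that brassinosteroid induces (373 FPM, from 5.02 to 944). *TCH4* was at 14.4, 388, 5.02 and 30.7 FPM at 16 h, against 944, 373 and 460.3 FPM at 0 h, which overlapped through cell 2 at 16 h. Against aliquots 2 of the 31 genes of the list above 0 were lower in every QC cell, beside 3.28% of all loci. They were *UGT73C5* and *UGT73C6*, glucosyltransferases that inactivate brassinosteroids. Whether these related genes share reads was not checked, so they may not count as 2 separate genes. *UGT73C5* was at 0 to 13.2 FPM in QC cells and 81.9, 211, 166 and 127 FPM in the aliquots, and both were named after values were seen.

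**Figure D4:**
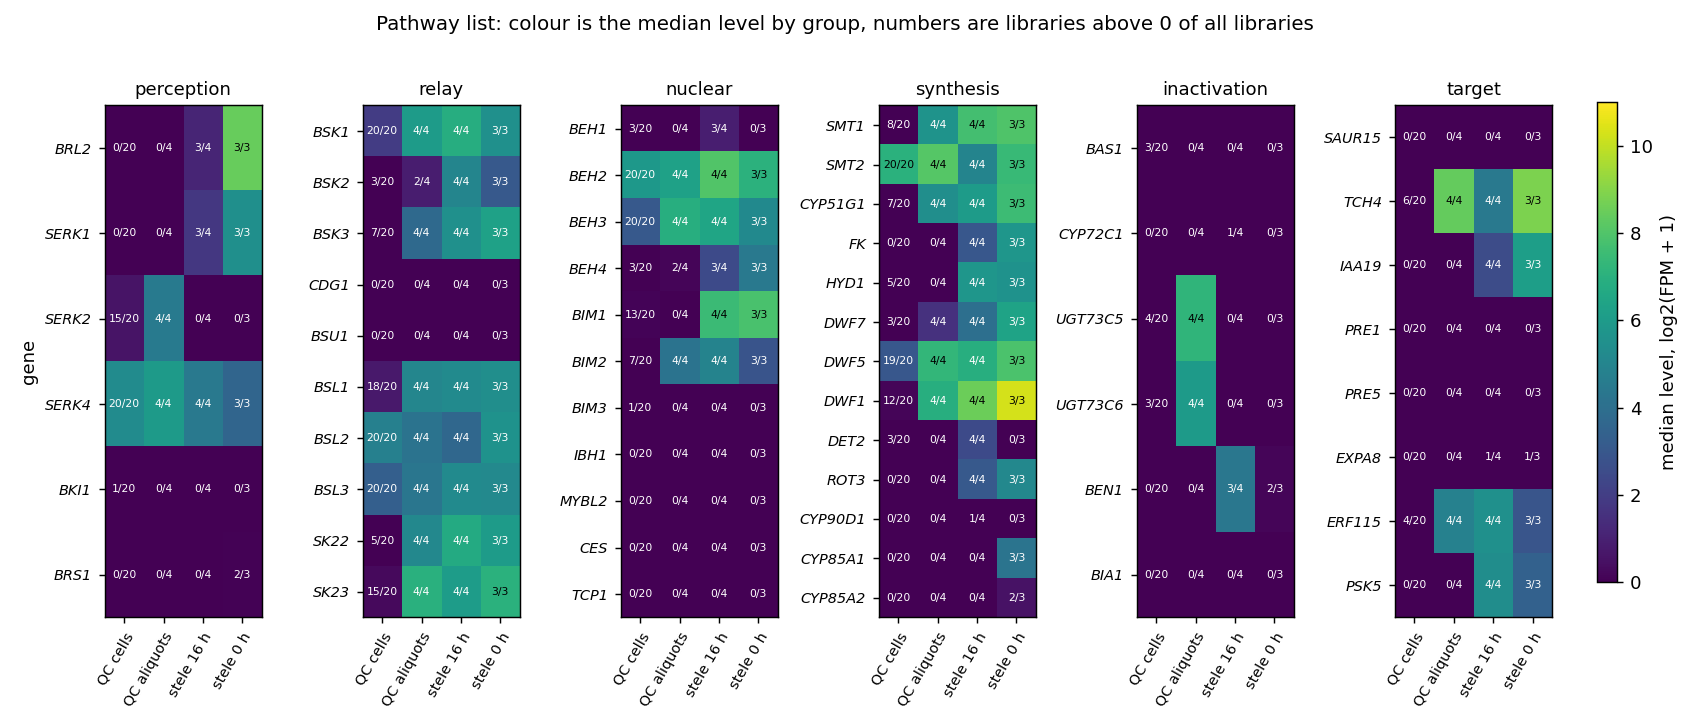
Median level of the 54 genes of the pathway list by group, as log2(FPM + 1) in colour, with genes in rows by role and the groups in columns from QC cells to stele cells at 0 h. The numbers in the fields are the libraries above 0 of all libraries; *BRL2*, *SERK1*, *FK*, *ROT3*, *IAA19* and *PSK5* are above 0 in stele cells and in none of the 24 QC libraries.

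The loci whose deposited log2 values ran most like those of a member over the 31 libraries were listed for the 8 members above 0 in at least 8 libraries, among 11953 other loci. For *BES1* they were *MSBP1* (Pearson r = 0.93) and AT3G10770 (0.91), for *BRL3* *TRM4* (0.82) and AT5G25590 (0.75), for *BRI1* AT5G62200 (0.81) and AT3G14890 (0.68), and for *BRAVO* *WIP4* (0.78) and *STZ* (0.75). *BRL1* ran most like *RABA5b* (0.78) and *MAP65-7* (0.77), and *BAK1* like *SERK4* (0.75) and AT5G05600 (0.68). *BIN2* ran like AT1G78150 (0.70) and *SDH1-1* (0.66), and *BZR1* like AT3G60300 (0.70) and *RBP47B* (0.67). Libraries share sets, depth and cell type, and 6 of these 16 loci were again among the first 2 by Spearman correlation.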

How the data were processed

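RNA of single cells and of split lysates was amplified and sequenced as 50-base single-end reads with a kit that does not mark strand. Alignment was by the authors with Bowtie2 on TAIR10. They summed the reads over the exons of each gene (a read with several locations as a partial read), dropped genes covered over less than 200 bases and scaled for library depth, and the deposited unit is log2. Each value proved to be log2(factor × reads + 1), with 1 factor in each library. That factor came from the steps between low values, and 100% of values under 1000 reads came out whole within 0.05 reads. Because of the partial reads, the step taken as 1 read may stand for less.

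FPM values were reads over the library total without the 2 reporter sequences, times 1000000, and differences are of medians of log2(FPM + 1). No filter on low values was used. Counts of groups that do not overlap were made over all loci above 0 in either group, and none of them is a test. Gene models and upstream sequences were read from the TAIR10.1 assembly (RefSeq), with no coordinates in the deposited table to match, and proteins translated from it were aligned end to end with BLOSUM62 and gap penalties of 10 and 0.5. The software was Biopython 1.88, matplotlib 3.10.9, scipy 1.17.1, pandas 2.3.3 and numpy 2.4.6 under Python 3.11.15. The computations were tested on simulated data.

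The members, the pathway list, the markers and the tests were chosen with earlier results of these data known. The genes named were all 10 members, the genes of the pathway list without overlap for QC cells against 0 h or for 16 h against 0 h, the 2 with the highest median in QC cells and in stele cells, and for each member above 0 in at least 8 libraries the 2 loci with the highest Pearson r. Other genes are said to be named after their values were seen, or are markers or synthesis genes of QC cell 14. Alternatives tried were detection at 1 or 10 FPM, libraries thinned to the smallest total (seed 1), scaling by the median ratio, other pseudocounts, the median over cells above 0, nearly alike libraries counted 1 time, libraries within no other, Spearman correlation, group medians removed, and leaving out each aliquot or stele cell in turn.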

Additional observations from a re-analysis of the deposited data

How the results depend on the processing

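For QC cells against 0 h and for 16 h against 0 h, *CPD* was the only member without overlap also at 1 FPM, at 10 FPM, after thinning, under median-ratio scaling and with nearly alike libraries counted 1 time. With only libraries that lie within no other, QC cells against the single stele cell left at 0 h gave 3 members (*BRI1* higher, *BIN2* and *CPD* lower). Leaving out a stele cell gave 1 to 2 members for QC cells against 0 h, with *BRAVO* added without cell 1, where the cells left at 0 h listed it at 0. For 16 h against 0 h it gave 1 to 4, with *BRI1*, *BZR1* and *DWF4* added without cell 2 at 16 h, *BRAVO* without cell 1 at 0 h, *DWF4* without cell 2 at 0 h and *BRI1* without cell 3 at 0 h. Of these, *DWF4* without cell 2 at 16 h rested on 5 reads against 6, and *BRAVO* on cells at 0 h listed at 0. QC cells against aliquots gave 2 members (*BRI1* higher, *BIN2* lower) with libraries within no other, where 1 aliquot was left, and 0 in each other alternative run. For 16 h against 0 h that setting leaves 1 cell against 1, which cannot overlap, so no count was made. At 10 FPM or more the median of members detected was 4.5 in QC cells and 5 in stele cells at 16 h. Of the 16 loci most like a member, 6 stayed by Spearman correlation and 5 with group medians removed. Of 347 differences of medians recomputed, 39 moved by more than the SD over cells and 23 changed sign, in 8 members, whose groups overlapped, and in neither *BRI1* nor *CPD*. With the median taken over cells above 0, QC cells against 0 h gave 1.84 for *DWF4* (cell 14 alone) and 4.05 for *BRL1*, and 16 h against 0 h gave -0.80 for *BRAVO*. No paired analysis was possible because the results come from no test and the replicate numbers only name libraries.

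Depth and nesting limit these values. A listed 0 can be a gene removed for low coverage in the leading library of a set. Values under 1 FPM rest on few reads in the smaller libraries, while *BIN2* at 0.776 FPM in QC cell 19 is 78 reads. Each group counts as 1 sample, so spread over cells holds differences between cells and amplification together, and over QC cells also differences between collection batches. The aliquots show the spread from handling for 1 lysate only.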
